A study of Mus musculus with 8 samples.

Results

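The genes of the fibroblast growth factor (FGF) pathway examined here are 34: 15 secreted ligands, 3 endocrine ligands, 4 intracellular homologous factors, 4 receptors, 6 feedback inhibitors and 2 ETS-family target genes. Each was followed as a locus, its gene body in the mm10 genome with 20 kb on either side, among the loci of 21938 protein-coding genes. The loci form 32 separate stretches of 4.11 Mb in all, because those of Fgf3, Fgf4 and Fgf15 run into each other. CUT&Tag, in which an antibody steers a transposase to its target so that DNA beside it can be sequenced, had been carried out on mouse embryonic fibroblasts (MEFs) at day 5 of reprogramming. The cells of both arms carried Oct4. They also carried either wild-type Nanog (labelled Nanog+Oct4, here NanogWT) or a fusion of Nanog with the BRG1-interacting domain of SS18 (labelled NanogN70+Oct4, here NanogBiD, an identity taken from the study's text). The factors were delivered by retrovirus into MEFs made from OG2 crosses, and no library of MEFs without the factors was used here. The antibodies recognised the FLAG tag on NANOG, BRG1 (Smarca4, the ATPase of the BAF chromatin remodeller) and the histone marks H3K27ac and H3K4me1, which gave 8 groups of 1 library each. The mark called H3K4me1 is so named in the sample titles, while their antibody entry reads H3K4me. No difference between the arms could therefore be set against replicates, no test was made, and the intervals below cover counting error only.

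FGF ligands bind receptor tyrosine kinases of the FGFR family and signal largely through RAS and the MAP kinase ERK. Sprouty (Spry) and Spred proteins and the phosphatase DUSP6 dampen that signal, and together with the ETS factors Etv4 and Etv5 they are classic genes switched on by it. FGF4 made by mouse pluripotent cells drives them towards differentiation through ERK, while fibroblasts are a known source of ligands such as FGF2, FGF7 and FGF10 and commonly use FGFR1.

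As a check of the labelled cell type, 7 of 8 fibroblast markers had an H3K27ac peak within 2 kb of a start site in both arms. Of 6 pluripotency markers, none had such a peak in NanogWT and Tdgf1 had it in NanogBiD. The H3K27ac peak stood at 0 of 3 endothelial markers in NanogWT and 2 of 3 in NanogBiD, at 1 and 2 of 3 blood markers, at 0 and 1 of 3 neural markers, and at 0 of 4 epithelial markers in both arms. The part of these markers in the results was not tested. The lists differed in size, with 58940 FLAG peaks in NanogWT and 74782 in NanogBiD, 30859 and 53748 BRG1 peaks, 35452 and 42598 H3K27ac peaks, and 72242 and 57156 H3K4me1 peaks. The lists carry no depth. A summary issued with the study gives NanogBiD more read pairs than NanogWT for FLAG and BRG1, and fewer for both histone marks. Its part in the peak numbers was not tested, and the counts over all members are set beside the same counts over all genes or whole lists.

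The FLAG summits below show DNA on which the results turn. They are the highest FLAG summit of each arm at the FGF loci. To these are added the region there with FLAG and BRG1 in NanogBiD alone that had the highest scores, and its NanogWT counterpart. A second NanogWT region, at Spred2, was picked after its letters were seen. Each line gives the plus strand of mm10 from 50 bases before the summit to 50 after it, and capitals mark letters of the motifs described later.
Etv5 intron, NanogWT summit, chr16:22389683-22389783: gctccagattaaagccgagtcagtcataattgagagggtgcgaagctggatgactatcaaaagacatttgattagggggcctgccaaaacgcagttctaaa
Fgf9 intron, NanogBiD summit, chr14:58101491-58101591: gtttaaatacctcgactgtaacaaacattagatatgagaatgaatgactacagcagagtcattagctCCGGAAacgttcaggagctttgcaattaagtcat
Fgf2 intron, NanogBiD alone, chr3:37354851-37354951: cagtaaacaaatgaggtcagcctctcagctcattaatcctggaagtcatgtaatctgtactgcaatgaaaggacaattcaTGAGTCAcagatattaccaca
Fgf18 downstream, NanogWT alone, chr11:33108366-33108466: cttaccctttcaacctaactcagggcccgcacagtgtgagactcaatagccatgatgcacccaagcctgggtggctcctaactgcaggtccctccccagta
Spred2 downstream, NanogWT alone, chr11:20043347-20043447: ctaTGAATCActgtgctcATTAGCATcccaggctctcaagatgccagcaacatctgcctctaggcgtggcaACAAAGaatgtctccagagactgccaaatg

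Summed over the loci, NanogBiD had more FLAG, BRG1 and H3K27ac peaks than NanogWT and fewer H3K4me1 peaks. FLAG peaks numbered 108 in the NanogWT list and 121 in the NanogBiD list. Their ratio was 1.12 (95% exact binomial interval 0.857 to 1.47), beside 1.27 over the whole lists. BRG1 peaks numbered 63 and 85, a ratio of 1.35 (0.963 to 1.90) beside 1.74. H3K27ac peaks numbered 65 and 80, a ratio of 1.23 (0.876 to 1.73) beside 1.20. H3K4me1 peaks numbered 155 and 118, a ratio of 0.761 (0.594 to 0.974) beside 0.791. All 4 directions were those of the whole lists. The H3K4me1 interval leaves out 1, but it holds 1 without a flank (0.582 to 1.12), by the nearest start site (0.593 to 1.02) and among the 20000 highest-scoring peaks (0.575 to 1.38). The BRG1 interval holds 1, but it leaves out 1 with a flank of 50 kb (1.08 to 1.82). The 20000 highest-scoring peaks of each list were also compared, so that the whole lists stood at 1 by construction. The BRG1 ratio was then 0.80 (0.501 to 1.27), an interval that holds 1. In that setting 28% of all protein-coding loci had fewer BRG1 peaks in NanogBiD and 11.9% had more. Of the members, 35.3% had fewer and 14.7% more.

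Counted by locus, 11 of the 34 members had more FLAG peaks in NanogBiD and 8 had fewer, where 40.9% and 14.4% of all protein-coding loci did. BRG1 peaks were more numerous in NanogBiD at 12 members and less numerous at 6, beside 42.1% and 10.1% of all loci. H3K27ac peaks were more numerous at 13 and less numerous at 3, beside 29.1% and 13.5%. H3K4me1 peaks were more numerous at 5 and less numerous at 23, beside 16.3% and 42.5%. FLAG numbers were equal at 15 members, of which 5 had no FLAG peak in either arm.

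**Figure D1:**
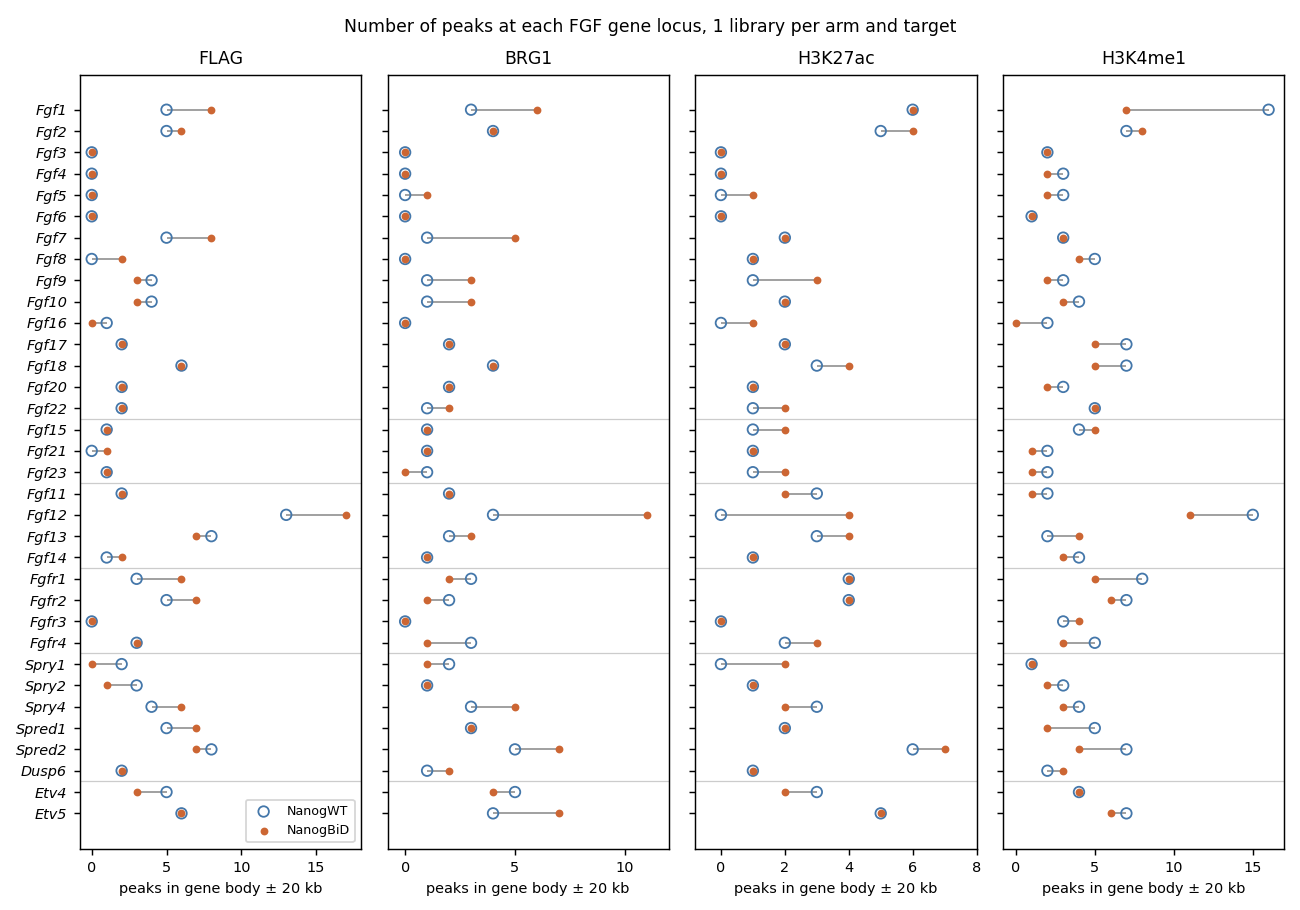
Number of peaks (horizontal axis) within each gene body and 20 kb either side, for 34 genes (vertical axis, grouped from top to bottom as secreted ligands, endocrine ligands, intracellular factors, receptors, feedback inhibitors and ETS targets), in NanogWT (open circles) and NanogBiD (filled dots), 1 library each. Fgf12 had the most FLAG and BRG1 peaks in NanogBiD, 17 and 11, and the H3K4me1 count of Fgf1 went from 16 to 7.

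Among the 15 secreted ligands, BRG1 peaks numbered 19 in NanogWT and 32 in NanogBiD. They were more numerous in NanogBiD at 6 of the 15 ligands and less numerous at 0, beside the 42.1% and 10.1% of all loci given above, so the share with more was near the background. The BRG1 numbers were 14 and 16 among the 20000 highest-scoring peaks, 12 and 17 with a score of at least 100, and 9 and 18 among summits of at least 15 tags. FLAG peaks numbered 36 and 42. They numbered 10 and 13 among the 20000 highest-scoring peaks and 22 and 28 among summits of at least 15 tags. With a score of at least 100 their direction turned, to 24 and 22. Fgf7, a growth factor that fibroblasts make for neighbouring epithelia, had the largest BRG1 difference of the ligands, with 1 BRG1 peak in NanogWT and 5 in NanogBiD. Its FLAG peaks numbered 5 and 8, its H3K27ac peaks 2 and 2, and its H3K4me1 peaks 3 and 3. At 3 of the places where BRG1 was called in NanogBiD alone, FLAG was called in both arms. The farthest upstream of these, at -19.6 kb from the gene's start, had FLAG summits of 16 tags in NanogWT and 39 in NanogBiD, a BRG1 summit of 24 tags in NanogBiD, and H3K27ac summits of 11 and 17 tags. A summit height is the pileup of tags at the peak's top, not scaled to depth. The peak at the start site of Fgf7 itself, at -0.116 kb, was in NanogBiD alone, with 20 FLAG tags and 15 BRG1 tags. The NanogWT peak that reaches the promoter had its summit 2.89 kb into the gene.

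Fgf9, a ligand that acts in the testis, skeleton and lung, held the highest FLAG summit of all the loci in NanogBiD. This intronic region, 31.0 kb into the gene, had a FLAG summit of 24 tags in NanogWT and 60 in NanogBiD. BRG1 (36 tags), H3K27ac (12) and H3K4me1 (15) were called there in NanogBiD and not in NanogWT. A second intronic region, 17.1 kb in, had FLAG summits of 19 tags in both arms and gained BRG1 (18 tags) and H3K27ac (11) calls in NanogBiD. Near the start of Fgf9 the BRG1 summits were 18 and 11 tags, and FLAG was called at separate places, 1.69 kb in with 16 tags in NanogWT and 0.041 kb in with 13 tags in NanogBiD. A FLAG peak of 12 tags 38.9 kb in was in NanogWT alone. In all, FLAG peaks at Fgf9 numbered 4 and 3 and BRG1 peaks 1 and 3. H3K27ac peaks at Fgf9 numbered 1 and 3, and H3K4me1 peaks 3 and 2.

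Fgf2, the basic FGF of fibroblast cultures, had nearly equal numbers in the arms, 5 and 6 FLAG, 4 and 4 BRG1, 5 and 6 H3K27ac and 7 and 8 H3K4me1 peaks. Its intronic region 6.56 kb from the start was called in NanogBiD alone for all 4 targets, with summits of 39 FLAG, 20 BRG1, 11 H3K27ac and 12 H3K4me1 tags. A second intronic region, 12.7 kb in, was called in both arms, and its summits were higher in NanogBiD for FLAG (24 and 48 tags), BRG1 (9 and 29) and H3K27ac (16 and 24) and lower for H3K4me1 (15 and 13).

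Fgf1, a ligand without a secretion signal peptide, had 5 FLAG peaks in NanogWT and 8 in NanogBiD, and 3 and 6 BRG1 peaks. H3K27ac stood at 6 peaks in both arms. Its H3K4me1 peaks numbered 16 and 7, the largest difference of any member and target, and their summed length was 18362 bp in NanogWT and 6427 bp in NanogBiD. The highest FLAG summit of Fgf1, near an internal start site 61.0 kb into the gene, was 26 and 46 tags, with BRG1 at 16 and 29.

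A few ligands had few or no called FLAG peaks. Fgf3, Fgf4 and Fgf6 had no FLAG, BRG1 or H3K27ac peak in either arm. Fgf4, the ligand of pluripotent cells, therefore had no FLAG region over its gene body (chr7:144847367-144865243), and its H3K4me1 peaks numbered 3 and 2. Fgf5, a gene of the primed pluripotent state, had no FLAG peak in either arm and no BRG1 or H3K27ac peak in NanogWT. In NanogBiD its start site had a BRG1 summit of 8 tags and an H3K27ac summit of 11 tags, and H3K4me1 peaks numbered 3 and 2. Fgf8 had FLAG peaks in NanogBiD alone, 2 summits of 13 and 12 tags at -3.75 kb and -6.08 kb from its start, where the nearest start site is that of Npm3. Its other peaks numbered 0 and 0 for BRG1, 1 and 1 for H3K27ac, and 5 and 4 for H3K4me1. Fgf16, on the X chromosome, had a FLAG summit of 9 tags and 2 H3K4me1 peaks in NanogWT alone and an H3K27ac summit of 10 tags in NanogBiD alone, with no BRG1 peak. The FLAG, BRG1 and H3K27ac calls made in a single arm at Fgf5, Fgf8 and Fgf16 had summits of 8 to 13 tags, where the lowest summit of a list was 6 to 8 tags.

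Of the other secreted ligands, Fgf10, a mesenchymal ligand of limb and lung buds, had 4 and 3 FLAG, 1 and 3 BRG1, 2 and 2 H3K27ac and 4 and 3 H3K4me1 peaks. Fgf17, Fgf18, Fgf20 and Fgf22 each had the same number of FLAG peaks in both arms, 2, 6, 2 and 2. Of these Fgf22 alone differed in BRG1, with 1 and 2 peaks, and Fgf17 and Fgf18 each had 7 and 5 H3K4me1 peaks. The FLAG and BRG1 regions of Fgf17 lay nearest to the start sites of Dmtn and Npm2, and those of Fgf22 to Polrmt and Rnf126. Neither gene had a FLAG or BRG1 peak within 2 kb of its own start sites. The Fgf18 region with the highest FLAG summits, 24 and 42 tags, lay nearest to Npm1.

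The 3 endocrine ligands, hormones that act through Klotho co-receptors, had few peaks, 2 and 3 for FLAG, 3 and 2 for BRG1, 3 and 5 for H3K27ac and 8 and 7 for H3K4me1. Fgf21 had a FLAG peak in NanogBiD alone (10 tags), at -13.6 kb from its start and nearest to the start site of Rasip1, beside 1 BRG1 and 1 H3K27ac peak in each arm and 2 and 1 H3K4me1 peaks. Fgf23 had a BRG1 peak, of 8 tags, in NanogWT alone, with 1 and 1 FLAG, 1 and 2 H3K27ac and 2 and 1 H3K4me1 peaks. Fgf15 had 1 FLAG and 1 BRG1 peak in each arm, 1 and 2 H3K27ac and 4 and 5 H3K4me1 peaks. Its FLAG and BRG1 peaks lay nearest to the start site of LTO1.

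Among the 4 intracellular homologous factors, which bind sodium channels and are not secreted, BRG1 peaks numbered 9 and 17. They numbered 4 and 3 among the 20000 highest-scoring peaks, 3 and 10 with a score of at least 100, and 4 and 4 among summits of at least 15 tags. Most of the difference lay at Fgf12, a gene body of 593 kb. Fgf12 had 13 FLAG peaks in NanogWT and 17 in NanogBiD, 4 and 11 BRG1 peaks, 0 and 4 H3K27ac peaks, and 15 and 11 H3K4me1 peaks. At 6 of its regions FLAG was called in both arms and BRG1 in NanogBiD alone. One of them, 332 kb into the gene, had FLAG summits of 12 and 36 tags and a BRG1 summit of 26 tags in NanogBiD. Its 4 H3K27ac summits in NanogBiD were low, 10 to 16 tags. Without Fgf12, BRG1 peaks over the other loci numbered 59 and 74, a ratio of 1.25. Fgf13 had 8 and 7 FLAG, 2 and 3 BRG1, 3 and 4 H3K27ac and 2 and 4 H3K4me1 peaks, the largest H3K4me1 difference towards NanogBiD. Fgf14, the longest gene body of the family, had few peaks, 1 and 2 FLAG and 1 and 1 BRG1. Fgf11 had 2 FLAG and 2 BRG1 peaks in each arm, 3 and 2 H3K27ac and 2 and 1 H3K4me1 peaks.

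At the receptors FLAG peaks numbered 11 and 16, a ratio of 1.45 (0.634 to 3.47) beside 1.27 over the whole lists. BRG1 peaks numbered 8 and 4, a ratio of 0.50 (0.110 to 1.87) beside 1.74. Each interval holds both 1 and the ratio of the whole lists. Merged into regions, in which overlapping peaks count once, BRG1 had 7 regions at the receptors, 4 in both arms, 3 in NanogWT alone and 0 in NanogBiD alone, where 9.91% and 48.4% of all BRG1 regions were in NanogWT alone and in NanogBiD alone. The BRG1 counts were again 8 and 4 among the 20000 highest-scoring peaks, 6 and 4 among peaks with a score of at least 100, and 3 and 3 among summits of at least 15 tags. The FLAG counts were 1 and 2, 5 and 5, and 2 and 7 under the same settings. FLAG and BRG1 thus ran in opposite directions with all peaks and with the 20000 highest-scoring peaks, and not with the other 2 settings. Over all protein-coding loci, the 20000 highest-scoring peaks also gave fewer BRG1 peaks in NanogBiD more often (28%) than more (11.9%). With the annotated record of Fgfr2, described below, the receptors had 119 and 141 FLAG and 70 and 102 BRG1 peaks, both more numerous in NanogBiD.

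Fgfr1, a receptor commonly found on fibroblasts (chr8:25513654-25575718), had 3 FLAG peaks in NanogWT and 6 in NanogBiD, 3 and 2 BRG1 peaks, 4 and 4 H3K27ac peaks, and 8 and 5 H3K4me1 peaks. At its internal start site 5.2 kb into the gene, FLAG was 18 and 21 tags and H3K27ac 16 and 18, while BRG1 was called in NanogWT (16 tags) and not in NanogBiD. In the introns BRG1 was higher in NanogBiD, 12 and 24 tags about 23 kb in and 11 and 18 tags about 30 kb in. The start site of Fgfr2, the receptor whose splice forms differ between epithelium and mesenchyme, had FLAG at 12 and 14 tags, H3K27ac at 8 and 11, and BRG1 at 12 tags in NanogWT alone. Its intronic region 50.3 kb in had BRG1 at 12 and 23 tags and FLAG at 19 and 29. In all Fgfr2 had 5 and 7 FLAG, 2 and 1 BRG1, 4 and 4 H3K27ac, and 7 and 6 H3K4me1 peaks.

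Those counts of Fgfr2 rest on the body chr7:130162451-130266263. Its GENCODE record runs to position 133123350, 2.96 Mb, because 1 of 27 transcript models extends over 30 other protein-coding genes, and that model was left out. With it the locus held 113 and 132 FLAG, 64 and 99 BRG1, 72 and 87 H3K27ac, and 148 and 125 H3K4me1 peaks, so Fgfr2 would count among the loci with more BRG1 in NanogBiD.

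Fgfr3 had no FLAG, BRG1 or H3K27ac peak in either arm, and 3 and 4 H3K4me1 peaks. Fgfr4 had 3 and 3 FLAG, 3 and 1 BRG1, 2 and 3 H3K27ac, and 5 and 3 H3K4me1 peaks. Its BRG1 difference came in part from a region 30 kb from its start, past its end, that was called as 2 peaks in NanogWT and 1 in NanogBiD, partly nearer to the start site of Nsd1.

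**Figure D2:**
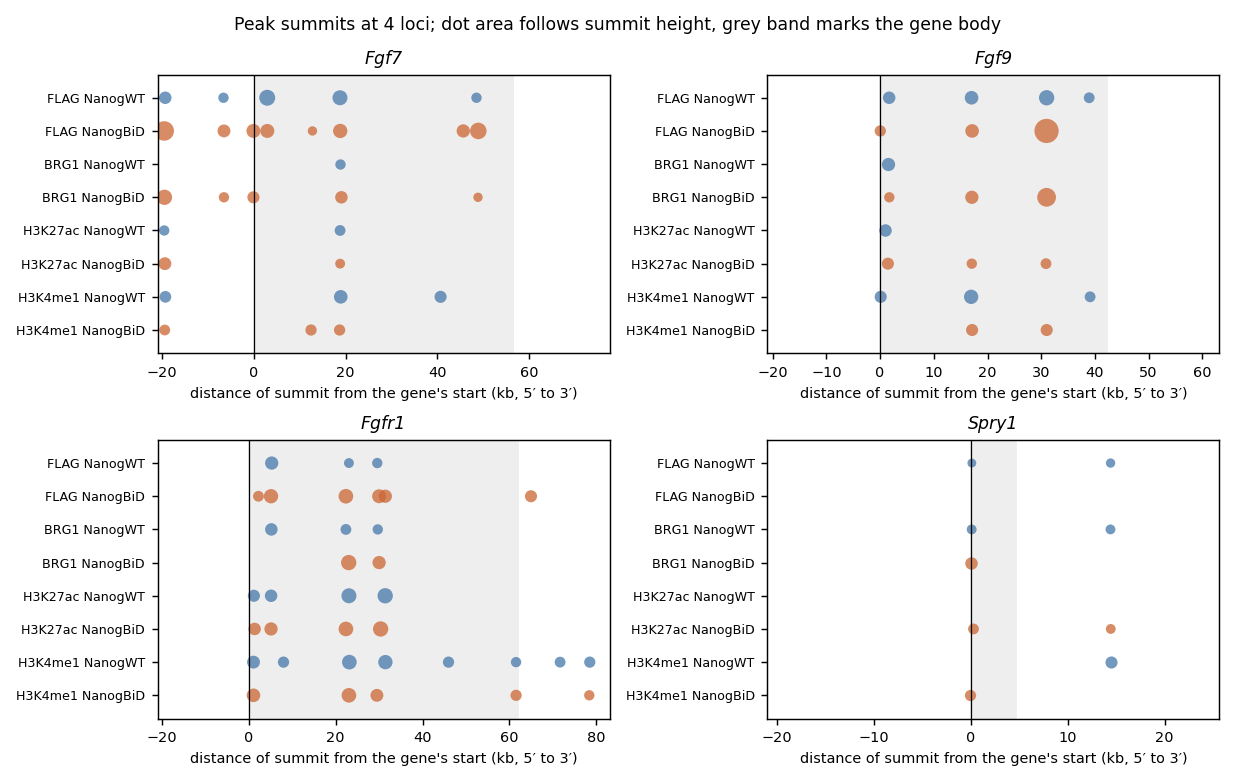
Position of each peak summit (horizontal axis, kb from the gene's start, in the direction of transcription) in the 8 libraries (vertical axis) at Fgf7, Fgf9, Fgfr1 and Spry1. NanogWT is blue and NanogBiD orange, dot area follows summit height, and the grey band is the gene body. At Fgf7 the BRG1 row goes from 1 dot to 5, at Fgfr1 the BRG1 dot near 5 kb is in NanogWT alone, and at Spry1 the FLAG row of NanogBiD is empty.

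The feedback inhibitors and ETS targets, Spry1 apart, had promoter FLAG and BRG1 peaks in both arms that stood high among the promoter peaks of all genes. A promoter peak is a peak that overlaps the 2 kb on either side of any annotated start site of the gene. At Spry2, Spry4, Spred1, Spred2, Dusp6, Etv4 and Etv5, promoter FLAG summits ranged from 30 to 46 tags in NanogWT and from 29 to 48 in NanogBiD, and BRG1 summits from 24 to 44 and from 26 to 42. Among all protein-coding genes with a promoter peak, the 75th percentile of the highest promoter summit was 25 and 27 tags for FLAG and 23 in both arms for BRG1, and all 7 of these genes lay above it, while Spry1, the gene left out, lay below it or had no peak. The 90th percentile was 33 and 36 tags for FLAG, with 4 and 3 of the 7 above it, and 30 in both arms for BRG1, with 2 and 3 above it. For H3K27ac, 6 of the 7 lay above the 75th percentile in NanogWT and 6 in NanogBiD, where Spry4 had no promoter peak. For H3K4me1, 6 of the 7 had a promoter peak in each arm, 3 of them above the median of all genes in each arm and 3 and 1 above the 75th percentile. Promoter FLAG summits of the secreted ligands had a median of 17.5 tags over 8 ligands in NanogWT and 20 over 7 in NanogBiD. Of the other members, Fgf1 (46 tags), Fgf11 (32) and Fgf18 (31) had FLAG summits of that height at a start site in NanogBiD. Peak numbers of the 6 feedback inhibitors were 24 and 23 for FLAG, 15 and 19 for BRG1, 13 and 15 for H3K27ac and 22 and 15 for H3K4me1. Their FLAG numbers were 9 and 7 among the 20000 highest-scoring peaks and 12 and 16 with a score of at least 100. They were 15 and 16 among summits of at least 15 tags. H3K27ac numbers under these settings were 6 and 6, 7 and 8, and 10 and 9. Among the 20000 highest-scoring peaks the BRG1 numbers turned, to 11 and 7, where 28% of all protein-coding loci had fewer and 11.9% more. The BRG1 numbers were 7 and 13 with a score of at least 100 and 8 and 13 among summits of at least 15 tags.

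Spry1 departed from the other inhibitors. Its start site had FLAG (8 tags) in NanogWT alone, BRG1 in both arms (10 and 16 tags), and H3K27ac (12 tags) and H3K4me1 (13 tags) in NanogBiD alone. A region 14.4 kb downstream had FLAG (9 tags), BRG1 (10) and H3K4me1 (15) in NanogWT alone and H3K27ac (10) in NanogBiD alone. Over the locus Spry1 thus had 2 and 0 FLAG, 2 and 1 BRG1, 0 and 2 H3K27ac, and 1 and 1 H3K4me1 peaks.

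At Spry4 the promoter H3K27ac peak of NanogWT, with a summit of 42 tags, had no counterpart in the NanogBiD list. FLAG (30 and 33 tags), BRG1 (24 and 26) and H3K4me1 (25 and 20) were called there in both arms. Over the genome, 1350 H3K27ac regions had a summit of at least 42 tags and 8 of them were called in NanogWT alone. A list without a peak does not show that the signal was absent, since the lists hold only what the peak caller kept. Spry4 had 4 and 6 FLAG, 3 and 5 BRG1, 3 and 2 H3K27ac, and 4 and 3 H3K4me1 peaks over its locus.

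Spry2 had promoter peaks of 40 and 39 FLAG tags, 33 and 38 BRG1 tags and 38 and 41 H3K27ac tags. Over its locus it had 3 and 1 FLAG, 1 and 1 BRG1, 1 and 1 H3K27ac and 3 and 2 H3K4me1 peaks. Its downstream FLAG peaks, 6.27 kb and 8.90 kb from the start with 29 and 16 tags, were called in NanogWT alone. Dusp6 had a region 5.7 kb from its start with FLAG at 16 and 32 tags and BRG1 (24 tags) in NanogBiD alone, beside promoter FLAG of 36 and 42 tags. It was among the few members with more H3K4me1 peaks in NanogBiD, 2 and 3, and had 2 and 2 FLAG, 1 and 2 BRG1 and 1 and 1 H3K27ac peaks. Spred1 had 5 and 7 FLAG, 3 and 3 BRG1, 2 and 2 H3K27ac and 5 and 2 H3K4me1 peaks, and Spred2 had 8 and 7, 5 and 7, 6 and 7, and 7 and 4.

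The ETS factors Etv5 and Etv4, which bind DNA downstream of ERK, had 11 and 9 FLAG and 9 and 11 BRG1 peaks together. Both directions depended on the setting. Among the 20000 highest-scoring peaks these were 6 and 5 FLAG and 6 and 5 BRG1 peaks. They were 7 and 8 FLAG and 5 and 7 BRG1 peaks with a score of at least 100. Summits of at least 15 tags gave 7 and 8 FLAG and 5 and 8 BRG1 peaks. An Etv5 intron (chr16:22388730-22391633) held the highest FLAG summit of all the loci in NanogWT, 60 tags against 43 in NanogBiD. BRG1 stood there at 30 and 40, H3K27ac at 44 and 34 and H3K4me1 at 23 and 21. Etv5 had 6 and 6 FLAG, 4 and 7 BRG1, 5 and 5 H3K27ac, and 7 and 6 H3K4me1 peaks. Etv4 had 5 and 3 FLAG, 5 and 4 BRG1, 3 and 2 H3K27ac, and 4 and 4 H3K4me1 peaks, and its FLAG and H3K27ac peaks more than 26 kb from its start lie nearest to Dhx8.

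Over all 34 members, promoters were FLAG-positive in both arms at 18, in NanogWT alone at 3 (Fgf13, Fgf16 and Spry1) and in NanogBiD alone at 0, where 51.5%, 3.74% and 5.31% of all protein-coding genes were. For BRG1 the numbers were 16, 4 (Fgf2, Fgf14, Fgfr1 and Fgfr2) and 2 (Fgf5 and Fgf7), beside 50.3%, 3.61% and 5.15%. For H3K27ac they were 16, 2 (Fgf14 and Spry4) and 5 (Fgf5, Fgf12, Fgf15, Fgf16 and Spry1), beside 55.6%, 1.44% and 4.29%. For H3K4me1 they were 24, 3 (Fgf9, Fgf16 and Fgf21) and 1 (Spry1), beside 57.8%, 5.50% and 4.24%. Long genes have several start sites, and the BRG1 peak of Fgf2 lay at an internal start 54 kb into the gene.

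**Figure D3:**
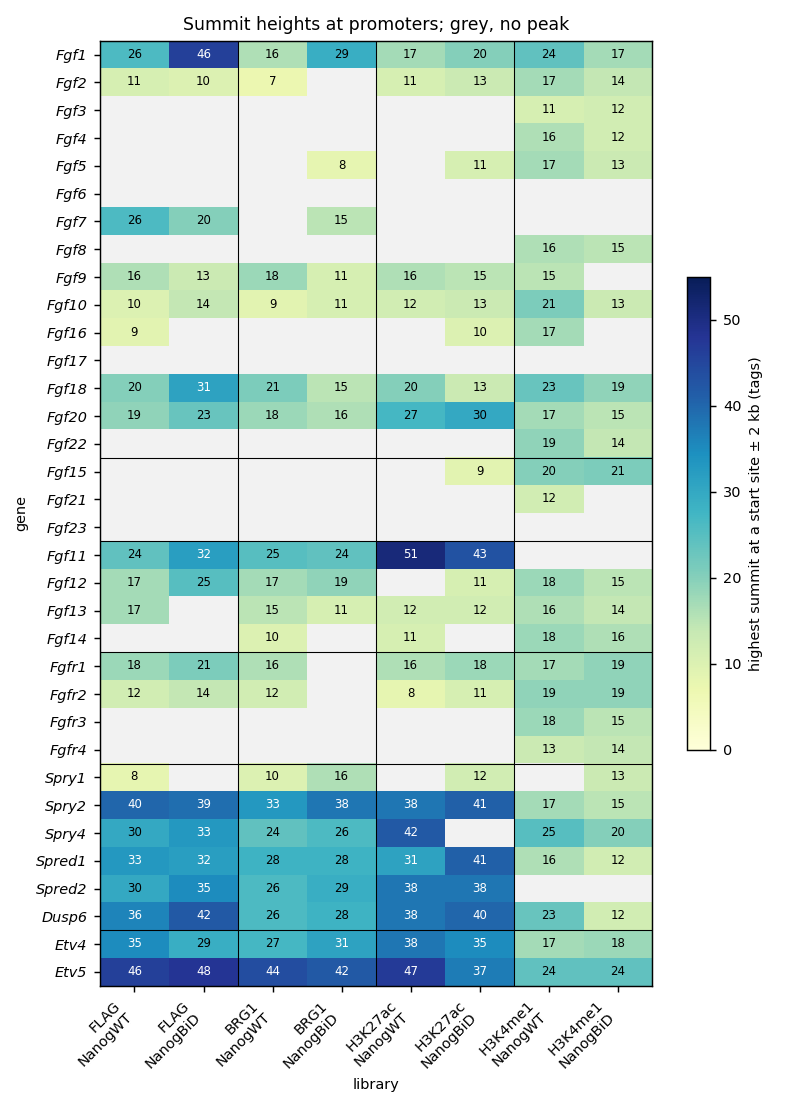
Height in tags of the highest peak summit overlapping 2 kb either side of a start site, for 34 genes (rows, by role) in 8 libraries (columns), with grey where no peak was called. The rows of Spry2, Spry4, Spred1, Spred2, Dusp6, Etv4 and Etv5 hold FLAG summits of 29 tags or more in both arms, and the BRG1 cells of Fgfr1 and Fgfr2 are filled in NanogWT alone.

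Peaks of both arms were merged into regions to ask which places were gained. FLAG had 147 regions at the loci, of which 81 had a peak in both arms. NanogBiD alone held 27.2% of them (Wilson 95% interval 20.7 to 34.9), beside 33.7% of all FLAG regions, and NanogWT alone held 17.7% beside 15.8%. Of 100 BRG1 regions, 39.0% (30 to 48.8) were in NanogBiD alone beside 48.4%, and 16.0% (10.1 to 24.4) in NanogWT alone beside 9.91%. Of 91 H3K27ac regions, 28.6% were in NanogBiD alone beside 29.1%, and 13.2% in NanogWT alone beside 14.6%. Of 173 H3K4me1 regions, 11.6% (7.61 to 17.2) were in NanogBiD alone beside 17.3%, and 32.9% in NanogWT alone beside 34.8%. The BRG1 interval for NanogWT alone lies above the share of all regions by a narrow margin, the H3K4me1 interval for NanogBiD alone lies below it by a narrow margin, and the other intervals given hold it.

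In NanogWT 50% of the FLAG peaks at the loci overlapped a BRG1 peak (40.7 to 59.3), beside 44.1% of the whole list. In NanogBiD 61.2% did (52.3 to 69.4), beside 64.7%. The overlap of FLAG with H3K27ac was 47.2% and 50.4%, beside 48.9% and 48.3% of the whole lists. With H3K4me1 it was 64.8% and 50.4%, beside 63.6% and 49.0%, so the lower value in NanogBiD was also that of the whole list. The converse overlap, of BRG1 peaks with FLAG, was 84.1% and 87.1%, beside 84.4% and 90.5%.

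FLAG and BRG1 peaks of both arms together made 155 regions at the loci. FLAG and BRG1 were both called in both arms at 37 (23.9%, beside 23.7% of such regions in the genome). At 25 (16.1%, beside 15.2%), FLAG was called in both arms and BRG1 in NanogBiD alone, among them 6 at Fgf12, 3 at Fgf7 and 2 each at Fgf9, Fgf10, Etv5, Spred2 and Spry4. The reverse, FLAG in both arms with BRG1 in NanogWT alone, was seen at 5 regions (3.23%, Wilson interval 1.39 to 7.33, beside 1.53%), 1 each at Fgf2, Fgf18, Fgfr1, Fgfr2 and Fgfr4. At the 25 regions, H3K27ac was called at 4 in NanogWT and 11 in NanogBiD, or 16.0% and 44.0%, beside 24.8% and 52.7% of the 14212 such regions in the genome. The FLAG summit was higher in NanogBiD at 19 of the 25 and lower at 4, or 76.0% and 16.0%, beside 71.7% and 23.1%. The median log2 difference of the FLAG summit was 0.56 beside 0.38 in the genome. At the 37 regions with both factors in both arms that median was 0.22 beside 0.10, and at the 14 regions with FLAG in both arms and no BRG1 it was 0.07 beside 0. The order of the 3 classes was thus also that of the whole genome. FLAG and BRG1 came together in NanogBiD alone at 10 regions (6.45%, 3.54 to 11.5, beside 11.1%) and in NanogWT alone at 5 (3.23%, beside 1.55%). FLAG came without BRG1 at 27 regions in NanogBiD alone (17.4%, beside 18.5%), 6 of them at Fgf12 and 3 each at Fgf13, Fgfr1, Fgfr2 and Spred1, and at 14 in NanogWT alone (9.03%, beside 11.4%). FLAG in NanogWT alone with BRG1 in both arms was seen at 5 regions, 1 each at Fgf9, Fgf13, Spred2, Spry1 and Etv4 (3.23%, 1.39 to 7.33, beside 0.817%). That interval leaves out the share in the genome, over a count of 5.

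**Figure D4:**
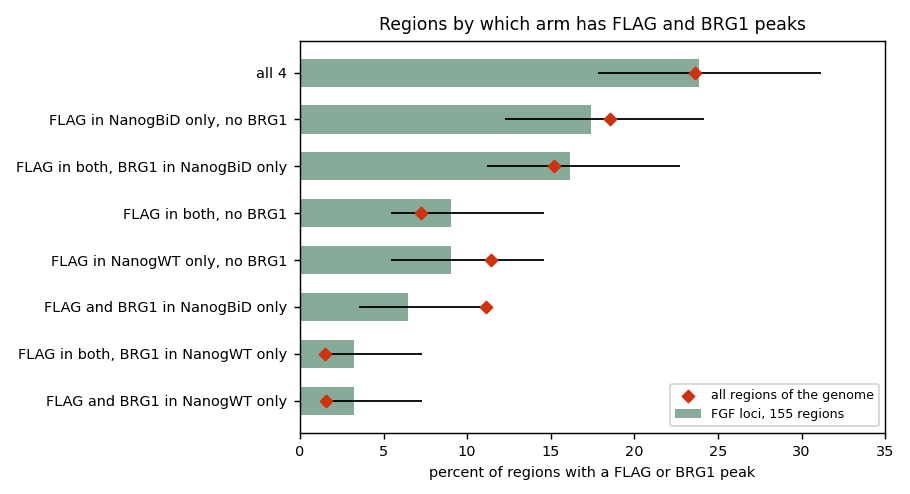
Percent of the 155 FLAG or BRG1 regions at the FGF loci (horizontal axis) in 8 of the classes made by which arm has each peak (vertical axis). Bars are the FGF loci with Wilson 95% intervals and diamonds are all such regions of the genome. Regions with FLAG in both arms and BRG1 in NanogBiD alone made up 16.1% at the loci and 15.2% in the genome.

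The regions with both factors in NanogBiD alone that had the highest scores were the Fgf2 region above and a pair in Fgf12 introns, chr16:28339063-28339714 (25 FLAG and 13 BRG1 tags) and chr16:28450231-28451081 (15 and 8 tags). Their NanogWT counterparts were downstream of Fgf18, chr11:33106872-33108827 (19 FLAG and 11 BRG1 tags), downstream of Spred2, chr11:20040931-20044049 (19 and 19 tags), and in an Fgf20 intron, chr8:40296583-40297022 (10 and 8 tags). The Spred2 region had an H3K27ac peak of 18 tags in NanogBiD alone.

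At regions called in both arms, FLAG summits were higher in NanogBiD at 55 of 81 and lower at 22, with a median log2 difference of 0.22 beside 0.15 over all shared FLAG regions. The median was 0 for BRG1 (45 regions) beside 0.14, and 0 for H3K27ac (53 regions) beside 0.08. For H3K4me1 it was -0.19 (96 regions) beside -0.18, and 70 of the 96 summits were lower in NanogBiD. By role, the FLAG median ran from 0.12 at the ETS targets (9 regions) to 0.43 at the intracellular factors (16 regions). For BRG1, the receptors had a median of 0.82 over 4 regions and the secreted ligands -0.17 over 15.

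**Figure D5:**
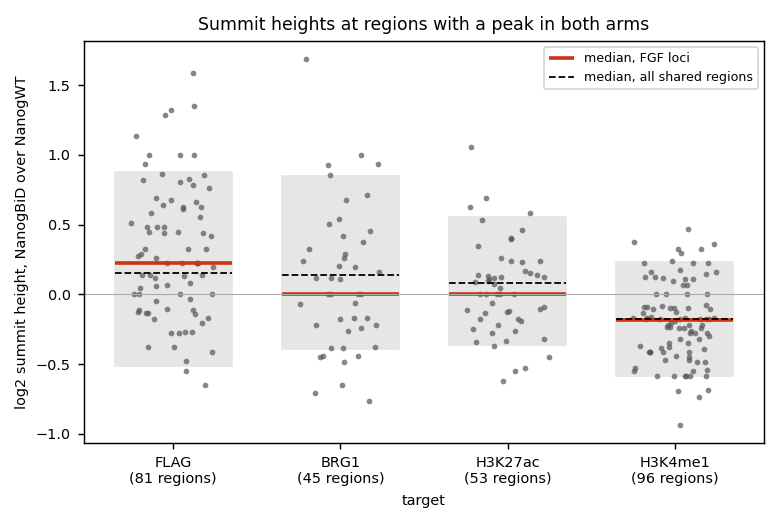
Log2 of summit height, NanogBiD over NanogWT (vertical axis), at each region of the FGF loci with a peak in both arms, for 4 targets (horizontal axis). Dots are regions, the red line is their median, the dashed line is the median of all shared regions of the genome and the grey box spans their 10th to 90th percentile. The red lines lie at 0.22, 0, 0 and -0.19.

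Letters of 5 motifs were searched on both strands of the same window around each FLAG summit. The OCT octamer (ATGCAAAT or ATGCTAAT) was in 1.85% of 108 windows at the loci in NanogWT and 4.13% of 121 in NanogBiD, beside 2.70% and 4.01% of all FLAG summits. SOX letters (ACAAAG or ACAATG) were in 15.7% and 19.0% beside 14.9% and 16.7%. AP-1 letters (TGANTCA) were in 8.33% and 8.26% beside 8.14% and 10.4%, TEAD letters (GGAATG) in 6.48% and 4.96% beside 7.40% and 6.75%, and ETS letters (CCGGAA) in 4.63% and 3.31% beside 2.63% and 2.30%. Every Wilson interval held the share of all summits. Of the printed windows, that of Fgf2 holds AP-1 letters, that of Fgf9 ETS letters, that of Spred2 AP-1, OCT octamer and SOX letters, and those of Etv5 and Fgf18 none of the 5. A match is a match of letters and no evidence of a bound site.

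Of 32 other genes of the pathway (Klotho co-receptors, adaptors, RAS, RAF, MEK and ERK kinases, further feedback and ETS genes), 31 were found in the annotation. Their loci had 117 and 147 FLAG peaks (ratio 1.26), 89 and 113 BRG1 peaks (1.27), 96 and 113 H3K27ac peaks (1.18), and 141 and 110 H3K4me1 peaks (0.780). FLAG peaks were more numerous in NanogBiD at 19 of the 31 and less numerous at 1, where 40.9% and 14.4% of all protein-coding loci were. BRG1 peaks were more numerous at 17 and less numerous at 4 (42.1% and 10.1% of all loci), H3K27ac peaks at 13 and 4 (29.1% and 13.5%), and H3K4me1 peaks at 5 and 17 (16.3% and 42.5%). The difference between these genes and the members was not tested.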

How the data were processed

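The 8 libraries, 1 per antibody and arm, were grouped by their labels. Per the labels and the study's methods, the authors trimmed reads with Trim Galore 0.6.4, aligned them to mm10 with Bowtie2 2.4.5, filtered them with SAMtools 1.16.1 and called peaks with MACS 1.4.2, keeping 1 tag per position, with no control library named. On replicates the study's statements differ. Its methods have them merged before peak calling, and its reporting summary says in general that every experiment was repeated but of CUT&Tag that it was performed once. The score in the deposited peak lists is the caller's significance score, no lower than 50.0. The signal in the deposited summit lists is a tag pileup that the authors did not scale to depth. The depth of a library is not in the lists, and a deeper library can yield more peaks.

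Peaks and summits were joined by name with pandas 2.3.3 in Python 3.11.15. Gene bodies and start sites came from GENCODE vM21, and sequence from GRCm38.p6, the same assembly as mm10. Overlap needed 1 bp. Ratios have exact binomial intervals and shares Wilson intervals (SciPy 1.17.1), at 95%. These cover counting error only, and peaks are not independent replicates. The counting was tested on simulated lists. Members and gene lists were chosen with earlier results of these data known. Genes named with all their values are those with peaks in a single arm, the 3 with the largest difference in each direction for each target, and the receptors. Values of other members are also given and were chosen after they were seen. The alternatives tried were the top 20000 peaks of each list by score, a minimum score of 100, no flank, a flank of 50 kb, the nearest start site and windows of 100 bp on either side of the summit. The Fgfr2 record as annotated and a summit height of at least 15 tags were added after the data were seen.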

Additional observations from a re-analysis of the deposited data

How the results depend on the processing

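Of 104 recomputations of the 14 summary values (peak ratios, shares of regions in NanogBiD alone, shares of FLAG peaks with BRG1, and loci with more peaks in NanogBiD), 80 stayed within the limits set for them, 23 moved and 1 reversed. Another 8, of ratios and locus counts with windows around summits, are left out of these numbers, because windows keep every peak and can alter its place only at a locus edge. The cause was not tested for any of them. With the 20000 highest-scoring peaks, the BRG1 ratio reversed to 0.80. Fewer BRG1 peaks in NanogBiD were then seen at 28% of all protein-coding loci and more at 11.9%. The share of regions in NanogBiD alone became 18.5% for BRG1, 16.7% for H3K27ac and 20.3% for H3K4me1. These shares and those under the settings below have no genome share beside them, because it was computed for the main setting only. The share of FLAG peaks with BRG1 became 62.5% in NanogWT and 77.1% in NanogBiD, and the loci with more peaks in NanogBiD became 5 for FLAG, 5 for BRG1 and 6 for H3K27ac, beside 15.1%, 11.9% and 12.3% of all protein-coding loci. With a score of at least 100, the share in NanogBiD alone became 18.8% for H3K27ac and 5.26% for H3K4me1, and the loci with more peaks 7 for H3K27ac and 2 for H3K4me1 (18.7% and 10.5% of all loci). With a flank of 50 kb, 22 loci had more BRG1 peaks, beside 54.8% of all loci. With windows of 100 bp around summits, the share in NanogBiD alone rose to 36.8% (FLAG), 39.8% (H3K27ac) and 26.5% (H3K4me1). Whether the share of all regions rose with such windows was not tested. There FLAG overlapped BRG1 at 34.3% of peaks in NanogWT and 48.8% in NanogBiD. With summits of at least 15 tags, the H3K4me1 ratio became 0.548, beside 0.602 over the whole lists. The share in NanogBiD alone became 37.2% for FLAG and 15.6% for H3K27ac. The loci with more peaks became 6 for H3K27ac and 1 for H3K4me1 (21.2% and 9.17% of all loci). No value moved beyond its limit (which for ratios does not ask whether the interval holds 1) with the Fgfr2 record as annotated, without a flank or by the nearest start site. With the Fgfr2 record as annotated the interval of the BRG1 ratio leaves out 1. No paired analysis was possible because 1 library stood for each group.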
